A study of Homo sapiens with 6 samples.

Results

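Osteoblast differentiation markers were followed in 143B, a human osteosarcoma cell line, with and without deletion of CNTNAP4, a neurexin-family transmembrane protein that binds the osteogenic secreted factor NELL-1. The 10 genes are the transcription factors RUNX2, SP7 and DLX5, the enzymes ALPL and PHEX, and the matrix proteins SPARC, BGLAP, SPP1, IBSP and DMP1. They were taken by symbol from the 54308 genes of the deposited table, and all 10 are listed there. The groups were cells transfected with the vector plasmid (VC, with a control genotype) and cells transfected with the CNTNAP4 knockout plasmid (KO), each with 3 libraries and, per the labels, 48 h of transfection. The labels and the study's methods both call the transfection transient. The methods give a longer incubation than the 48 h of the labels, followed by sorting of both kinds of transfected cells into single-cell colonies. The labels do not say which colony a library came from, so the spread between libraries may be that of repeated cultures of 1 clone, and a difference between clones cannot be told apart from the effect of the deletion.

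Osteoblasts arise from mesenchymal progenitors in an ordered programme. DLX5, a homeodomain factor that acts downstream of bone morphogenetic proteins, promotes expression of RUNX2, the master factor of the lineage, and SP7 (osterix) acts after RUNX2 to commit the cell. Alkaline phosphatase (ALPL) marks early osteoblasts and frees phosphate for mineral, SPARC (osteonectin) and SPP1 (osteopontin) are secreted into the matrix, BGLAP (osteocalcin) and IBSP (bone sialoprotein) mark mature mineralizing cells, and PHEX and DMP1, which regulate phosphate and mineral, are highest in osteocytes.

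Of the 10 genes, 6 had a log2 signal in every library, 2 (SP7 and BGLAP) had empty cells, and 2 (IBSP and DMP1) had no value in any library. The 7 genes that had 2 or more values in VC and also in KO were tested with limma's moderated test, with p-values adjusted by the Benjamini-Hochberg method over all 19306 genes tested, and a gene with an adjusted p under 0.05 is a DEG. SPP1, ALPL and SPARC were DEGs and were higher in KO, RUNX2, DLX5, SP7 and PHEX were not DEGs, and no marker was lower at an adjusted p under 0.05 or at an unadjusted p under 0.05. The same 3 genes were DEGs with an ordinary linear model without moderation. Among all tested genes, 32.9% were DEGs, 13.1% being higher and 19.8% lower in KO. The excess of lower genes (3828 against 2526) was smaller with libraries centred on the median of the 17698 genes with 6 values (3233 against 3005) and turned over without VC replicate 1 (646 lower, 757 higher) or VC replicate 3 (569 lower, 654 higher). Of the 6 markers with a full set of values, 4 had all KO libraries above all VC libraries, against 22.6% of all genes with 6 values, and groups that did not overlap in either direction were found for 59.3% of those genes. The median log2 fold change was 0.37 over the 7 tested markers and -0.13 over all tested genes. The markers were not ranked by level, because the sources used here do not say whether the signals were scaled to transcript length. Where the level of a marker is set against that of other genes below, or genes are chosen by mean signal, the same limit holds.

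**Figure D1:**
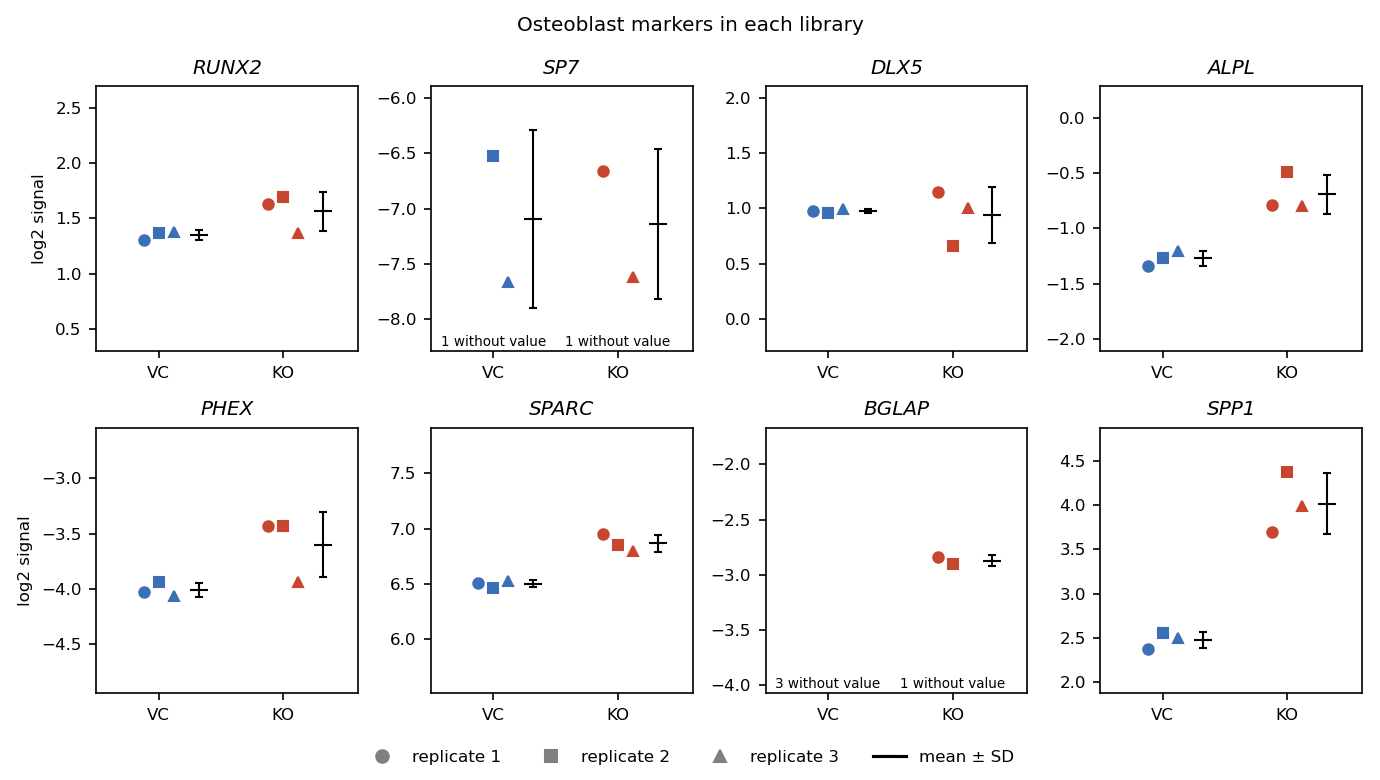
Log2 signal of the 8 markers that had a value, in VC (blue) and KO (red). Each symbol is 1 library, the black bar is the group mean with its SD where a group has at least 2 values, and each panel has its own vertical range. The KO libraries of SPP1, ALPL, SPARC and PHEX lie above all VC libraries, for PHEX by a margin too small to see in KO replicate 3. Those of RUNX2 and DLX5 overlap with VC, and BGLAP has a value in KO replicates 1 and 2 alone.

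SPP1, IBSP and DMP1 are neighbours in a cluster of secreted phosphoproteins on chromosome 4, and SPP1 was the marker with the largest fold change, whereas its relatives were without a value. The bases before their start sites are shown for this reason, from RefSeq on GRCh38.p14, plus strand. Capitals mark the RUNX core, searched as TGTGGT and its reverse complement ACCACA on both strands. The SPP1 stretch ends where the first exon of GENCODE release 29 begins. The last 64 bases before the RefSeq start site of SPP1 are therefore left out.
SPP1, chr4:87975464-87975649: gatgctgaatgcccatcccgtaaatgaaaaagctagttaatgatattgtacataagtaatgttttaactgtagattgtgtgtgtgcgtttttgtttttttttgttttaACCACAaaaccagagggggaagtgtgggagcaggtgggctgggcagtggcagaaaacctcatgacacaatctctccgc
IBSP, chr4:87799304-87799553: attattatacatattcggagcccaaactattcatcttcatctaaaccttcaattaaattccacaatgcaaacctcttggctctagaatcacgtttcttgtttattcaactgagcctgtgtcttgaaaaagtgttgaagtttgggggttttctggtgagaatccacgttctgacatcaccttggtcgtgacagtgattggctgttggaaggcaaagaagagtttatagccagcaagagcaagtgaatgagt
DMP1, chr4:87650030-87650279: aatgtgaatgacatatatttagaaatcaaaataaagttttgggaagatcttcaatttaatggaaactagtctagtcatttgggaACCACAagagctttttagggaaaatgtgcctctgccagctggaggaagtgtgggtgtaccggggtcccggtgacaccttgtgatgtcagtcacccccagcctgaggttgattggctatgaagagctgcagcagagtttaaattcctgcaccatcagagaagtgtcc

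Of the 10 markers, 7 had a start site in the set of RefSeq promoter sequences used here, which held none for SP7, DLX5 and PHEX. In the 250 bases before a start site, the RUNX core was present for RUNX2, BGLAP, SPP1 and DMP1, that is for 4 of the 7, and in 11.0% of the 35116 such windows of all genes. The GC box bound by Sp-family factors, GGGCGG on either strand, was present for RUNX2, ALPL and BGLAP, and in 42.6% of all windows. The homeodomain site TAATTG, on either strand, was present for IBSP, and in 6.7% of all windows. A marker was counted if any of its start sites had a match, whereas the percentages count single windows. RUNX2 and ALPL had more than 1 start site, so the counts and the percentages differ in unit. The RUNX cores and the GC box of RUNX2 lay before different start sites. Of the 3 DEGs, SPP1 held a RUNX core 142 bases before its RefSeq start site, which lies beyond the end of the stretch printed above. The middle of the 3 ALPL start sites had 4 GC boxes, and SPARC had none of the 3 motifs. The motifs do not overlap one another, and such matches describe letters and not bound sites.

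Among the transcription factors, RUNX2 (chr6:45328157-45664349, positions here and below from GENCODE release 29 on GRCh38) had log2 signals of 1.30, 1.37 and 1.38 in VC replicates 1, 2 and 3 and of 1.63, 1.69 and 1.36 in KO replicates 1, 2 and 3. KO replicate 3 fell within the VC range and KO replicates 1 and 2 above it. The log2 fold change was 0.21 (standard error 0.11, 95% interval -0.059 to 0.49, limma adjusted p = 0.177). The adjusted p lay between 0.0657 and 0.353 under all 15 alternatives tried.

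DLX5 (chr7:97020392-97024950) had log2 signals of 0.976, 0.958 and 0.997 in the VC libraries and 1.149, 0.664 and 1.008 in the KO libraries. KO replicate 2 was below and KO replicates 1 and 3 were above all VC libraries, so the groups overlapped. The log2 fold change was -0.037 (95% interval -0.38 to 0.31, limma adjusted p = 0.854), which changed sign when each library was centred on the median of the genes with 6 values (0.047), with a further quantile normalization (0.075) and without KO replicate 2 (0.10).

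SP7 (chr12:53326575-53345315) had a value in 4 libraries, at -6.52 and -7.66 in VC replicates 2 and 3 and at -6.66 and -7.62 in KO replicates 1 and 3. These lie near the bottom of the table, where 4.8% of all listed values are lower than their mean. Of the 1917 genes with a mean within 0.5 of that of SP7, 10.6% had a value in all 6 libraries. The log2 fold change was -0.046 with a 95% interval from -1.79 to 1.69 (limma adjusted p = 0.957), so that neither a rise nor a fall of 2-fold was outside the interval. Its sign was positive with each library centred on the median of the genes with 6 values (0.0037).

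ALPL, the early marker (chr1:21509372-21578412), had log2 signals of -1.34, -1.27 and -1.20 in VC and of -0.79, -0.49 and -0.80 in KO. All 3 KO libraries were above all 3 VC libraries, with KO replicate 2 the highest. In the linear scale the mean difference was 1.49-fold, a log2 fold change of 0.58 (standard error 0.11, 95% interval 0.30 to 0.86, limma adjusted p = 0.0202). ALPL was not a DEG without VC replicate 1 (adjusted p = 0.0728), VC replicate 2 (0.061), VC replicate 3 (0.064) or KO replicate 3 (0.0508), in fits where the log2 fold change was between 0.54 and 0.63. With 1 added to the linear signal the difference was 0.20 and ALPL was still a DEG (adjusted p = 0.0178).

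PHEX, an endopeptidase of the osteocyte membrane whose loss causes phosphate wasting (chrX:22032441-22251310), had log2 signals of -4.03, -3.94 and -4.06 in VC and of -3.43, -3.43 and -3.94 in KO. KO replicates 1 and 2 were above VC, and KO replicate 3 was above the highest VC library only in the third decimal (-3.936 against -3.938). The log2 fold change was 0.41 (standard error 0.16, unadjusted p = 0.0472, limma adjusted p = 0.1). PHEX was a DEG without KO replicate 3 (log2 fold change 0.58, adjusted p = 0.0375) and with a further quantile normalization of the genes with 6 values (0.66, adjusted p = 0.0306). With 1 added to the linear signal, which compresses low genes, the difference was 0.029.

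SPARC, a collagen-binding matrix protein (chr5:151661096-151687165), had log2 signals of 6.508, 6.465 and 6.526 in VC and of 6.954, 6.848 and 6.802 in KO. The groups did not overlap, and their SDs were 0.031 in VC and 0.078 in KO. SPARC rose by 0.37 on the log2 scale, or 1.29-fold (standard error 0.073, 95% interval 0.18 to 0.55, limma adjusted p = 0.0213). It was not a DEG without VC replicate 1 (adjusted p = 0.076), VC replicate 2 (0.0639), VC replicate 3 (0.0748) or KO replicate 3 (0.0559). Of its exon bases, 7.9% overlap the antisense gene CLMAT3, which was listed with a value in KO replicate 2 alone (-6.81).

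SPP1, a phosphoprotein that binds integrins and CD44 and is also made by many tumours and macrophages (chr4:87975650-87983426), had log2 signals of 2.37, 2.55 and 2.50 in VC and of 3.69, 4.37 and 3.99 in KO. The lowest KO library exceeded the highest VC library by more than the range of either group. SPP1 rose 2.92-fold, a log2 fold change of 1.55 (standard error 0.19, 95% interval 1.08 to 2.01, limma adjusted p = 0.00963). It was a DEG with every library left out in turn (highest adjusted p 0.0441, without VC replicate 3) and under all 15 alternatives, with log2 fold changes from 1.37 to 1.71. Among all tested genes, 2.14% had a log2 fold change at least as high. Relative to the median of all tested genes, the log2 fold change was 1.67 for SPP1, 0.70 for ALPL and 0.49 for SPARC. In bulk RNA, a change in the share of cells that express a gene cannot be told apart from a change in RNA per cell.

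**Figure D2:**
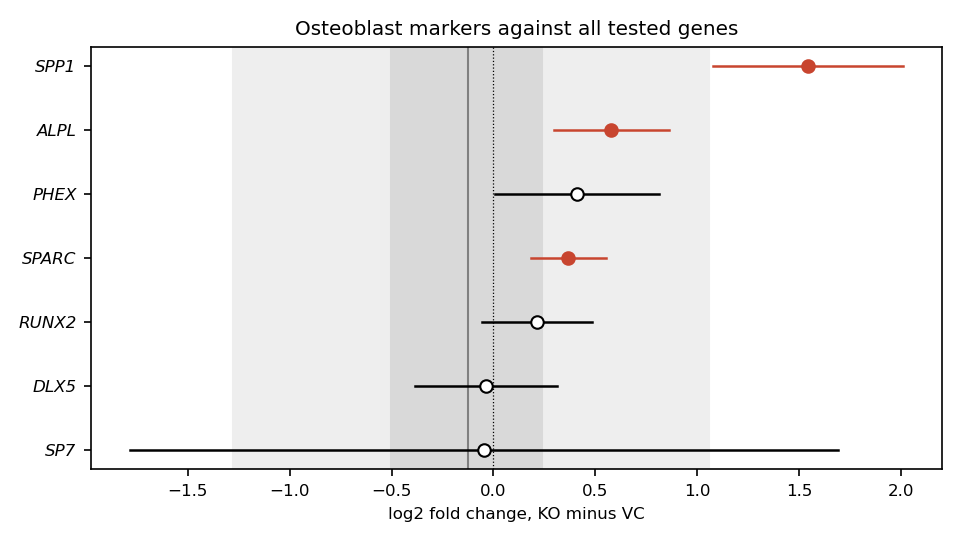
Log2 fold change (KO minus VC) of the 7 tested markers with 95% intervals from limma, on the horizontal axis. Filled red points are DEGs and open points are not, the grey line is the median of all tested genes (-0.13), the dark band holds their 25th to 75th percentile (-0.50 to 0.24) and the light band their 5th to 95th (-1.28 to 1.06). Only SPP1 lies beyond the light band.

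BGLAP, the osteocalcin gene (chr1:156241962-156243321), had values of -2.84 and -2.91 in KO replicates 1 and 2 and none in KO replicate 3 or any VC library. It was therefore not tested. Of the 1316 genes with a mean within 0.5 of that of BGLAP, 82.1% had a value in all 6 libraries and 7.5% had 2 values or fewer, so an empty cell was less common at this level than at that of SP7. With empty cells filled by the lowest value of the table, the log2 difference was 5.33 with a 95% interval from -0.96 to 11.6 (limma adjusted p = 0.191), a value set mainly by the filling.

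The reading of BGLAP is uncertain because 33.4% of its 1190 exon bases are shared, on the same strand, with the readthrough gene PMF1-BGLAP. PMF1-BGLAP had log2 signals of 2.42, 1.65 and 2.10 in VC and of 2.13, 1.22 and 0.99 in KO, with overlapping groups (log2 fold change -0.61, limma adjusted p = 0.236). Without KO replicate 1 it was a DEG (-0.95, adjusted p = 0.0415), and the value was -0.38 without KO replicate 3. PMF1, the upstream gene, had a mean of 5.41 ± 0.048 in VC against 5.43 ± 0.064 in KO (SD, n = 3 each, limma adjusted p = 0.871). How the authors divided reads between overlapping genes is not given in the sources used here.

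IBSP (chr4:87799581-87812435) and DMP1 (chr4:87650307-87664361) had empty cells in all 6 libraries, as did 29611 of the 54308 genes. Neither a level nor a difference can be given for either gene, and their depth limit is unknown. The cluster around them was described gene by gene, with neighbours from RefSeq chosen after the value of SPP1 had been seen. Between SPARCL1 and SPP1 stand DSPP, DMP1, IBSP and MEPE. SPARCL1 and MEPE had no value, and DSPP had 1 (-7.88, in VC replicate 2). On the far side of SPP1, PKD2 had a log2 fold change of -0.28 (limma adjusted p = 0.0618), ABCG2 of -0.36 (adjusted p = 0.144) and PPM1K of -0.039 (adjusted p = 0.813). Beyond SPARCL1, NUDT9 had -0.26 (adjusted p = 0.162) and HSD17B11 0.23 (adjusted p = 0.0948). Of the 11 genes shown 6 were tested, of which SPP1 was the 1 DEG, and the median log2 fold change of the 314 chromosome 4 genes in the upper 50% of mean signal was -0.053.

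**Figure D3:**
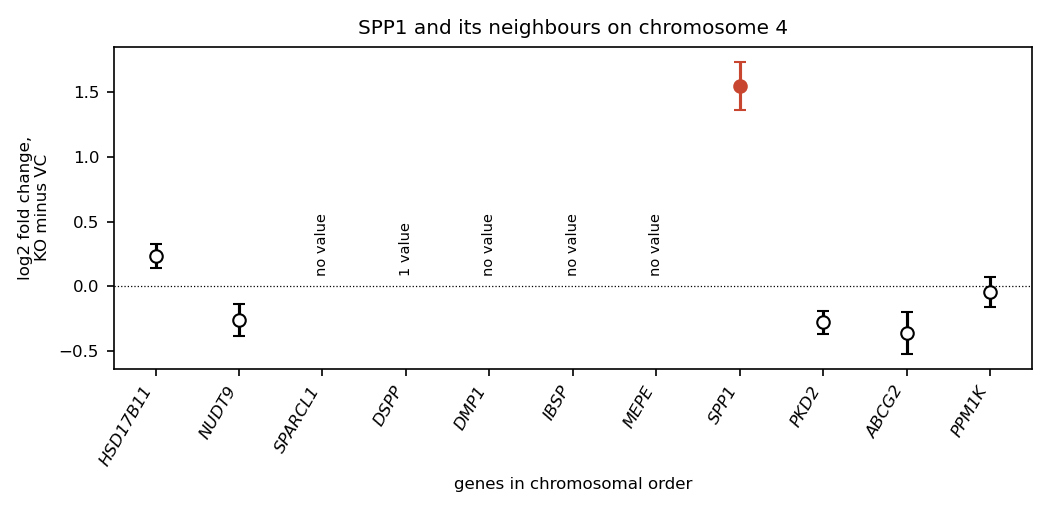
Log2 fold change (KO minus VC, limma, bars are standard errors) of SPP1 and listed protein-coding neighbours in their order along chromosome 4, with equal spacing. SPP1, in red, stands at 1.55, and the 5 other tested genes lie between -0.36 and 0.23, with 5 genes having no value or 1 value.

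The KO libraries varied more than the VC libraries for all 6 markers with a full set of values, and the same was true of 70.2% of all genes with 6 values. In a principal component analysis of those genes, the first component held 63.5% of the variance, with scores from -48.4 to -46.7 in VC and of 20.8, 73.8 and 48.9 in KO replicates 1, 2 and 3. SPP1, ALPL, RUNX2 and PHEX were highest and DLX5 lowest in KO replicate 2, the library farthest from VC. PHEX was so only narrowly (-3.429, against -3.435 in KO replicate 1). SPARC was highest in KO replicate 1, the KO library nearest to VC. Genes with a value numbered 20333 to 21041 per library, and the signals had been quantile-normalized to 1 distribution, so the depth of the libraries is unknown. For CNTNAP4 the only listed signal was -7.18, in VC replicate 3, so the deposited signals do not check its deletion. The paper reports that the deletion was checked in its clones by qRT-PCR, western blot and an endonuclease assay. Chromosome medians of the upper 50% of genes were between -0.15 and -0.0088 for the chromosomes of all 10 markers.

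**Figure D4:**
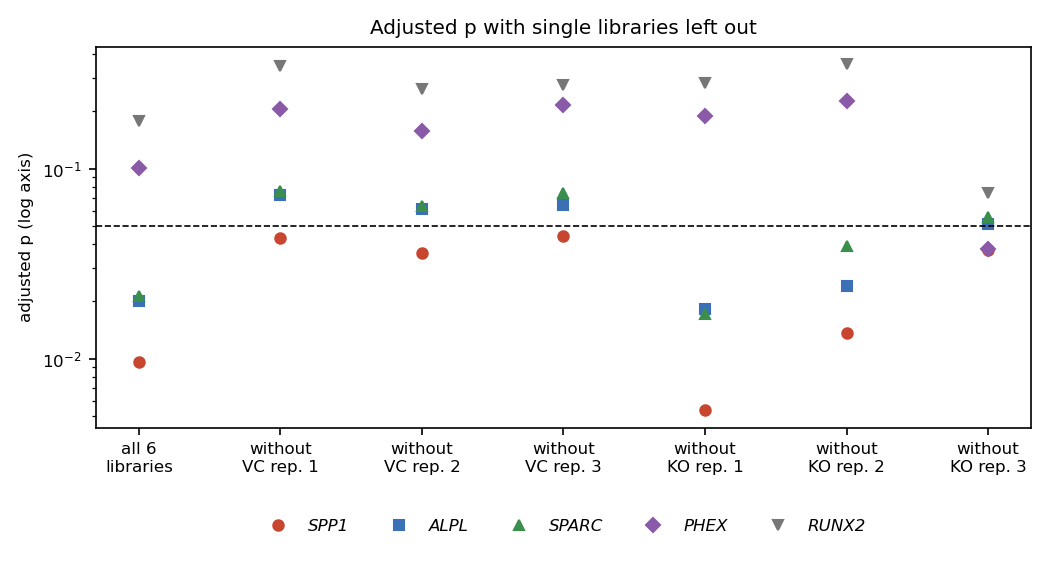
Adjusted p (limma, log axis) of 5 markers in the fit of all 6 libraries and in fits without 1 library each, with the dashed line at 0.05. SPP1 stays under the line in each fit, ALPL and SPARC are over it without any 1 of the VC libraries or KO replicate 3, PHEX is under it only without KO replicate 3, and RUNX2 is over it in each.

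The patterns most like those of the DEGs were sought among the genes in the upper 50% of mean signal by Pearson correlation over the 6 libraries, which fall into the VC and KO groups, so any gene with a difference of the same direction scores highly. For SPP1 these were ACVR1 (r = 0.9997), a BMP type I receptor, ERAP1 (0.9995) and ING4 (0.9993), and 1315 of 9652 genes reached 0.95. For ALPL they were DDX59 (0.9979), FAM86DP (0.9973) and ZEB1-AS1 (0.9956), and 948 genes reached 0.95. For SPARC they were TNIK (0.9982), ATP6V0A1 (0.998) and PTPRK (0.9956), with 266 genes at 0.95 or over. ATP6V0A1 was itself not a DEG (log2 fold change 0.15, limma adjusted p = 0.123).

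The rest of the osteoblast programme was described by 5 lists of genes. Among all tested genes 32.9% were DEGs, 13.1% higher and 19.8% lower in KO. DEGs made up 44.4% of the tested bone transcription factors and 69.6% of the tested matrix and mineralization genes. The shares were 50% for the osteocyte genes, 61.5% for the hormone and coupling genes and 45% for the BMP pathway. Of 18 bone transcription factors, all tested, 7 were lower and 1 was higher in KO, and 10 were not DEGs (median log2 fold change -0.28). ATF4, a stress-responsive factor that also drives late osteoblast genes, rose by 1.34 (limma adjusted p = 0.00815) and lies on chromosome 22, where the median was 0.31. DLX6, the partner of DLX5 in the same gene pair, fell from 1.58 ± 0.044 to 0.48 ± 0.47 (SD, n = 3), by 1.10 on the log2 scale (limma adjusted p = 0.0276). FOXC1 fell by 0.76 (limma adjusted p = 0.046). CBFB, the obligate partner of RUNX proteins, named after its value was seen, fell by 0.38 (limma adjusted p = 0.0455). Without single libraries the number of lower factors ran from 0 to 8, the highest adjusted p being 0.0839 for DLX6 and 0.125 for FOXC1 without VC replicate 3 and 0.119 for CBFB without VC replicate 1, and ATF4 remained a DEG in all 6 fits. DLX6, FOXC1 and CBFB were also not DEGs without moderation (adjusted p = 0.0583, 0.0849 and 0.0659) or with empty cells filled (0.0542, 0.0833 and 0.0826), and FOXC1 and CBFB not with centred libraries (0.0506 and 0.0632).

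Of 30 matrix and mineralization genes, 23 were tested, 11 were higher, 5 were lower and 7 were not DEGs (median log2 fold change 0.33), and 4 had no value. Of all tested genes, 13.1% were higher and 19.8% lower. POSTN (periostin) rose by 2.88 from -5.80 ± 0.76 (SD, n = 3, limma adjusted p = 0.0159), ENPP1, which makes the mineralization inhibitor pyrophosphate and so opposes ALPL, by 1.66 (adjusted p = 0.0184), and LOX, which cross-links collagen, by 1.48 (adjusted p = 0.00963). COL5A1 fell by 1.13 (limma adjusted p = 0.00571), the proteoglycan BGN by 0.87 (adjusted p = 0.00815) and COL1A2 by 0.81, from -4.81 ± 0.22 to -5.62 ± 0.13 (SD, n = 3, adjusted p = 0.0161). COL1A1, the other chain of type I collagen, named after its value was seen, had log2 signals of 2.41, 2.28 and 2.34 in VC and 2.58, 2.73 and 2.72 in KO and rose by 0.33 (limma adjusted p = 0.0309). LOX, COL5A1 and BGN remained DEGs in all 6 fits, whereas the highest adjusted p was 0.0636 for ENPP1 and 0.0994 for COL1A1 (VC replicate 3 left out), 0.0574 for POSTN (VC replicate 1 left out) and 0.0571 for COL1A2 (KO replicate 3 left out). COL1A2 was also not a DEG with a trend and robust moderation (adjusted p = 0.113) or with 1 added to the linear signal, where its difference was -0.022 and that of POSTN 0.16. COL1A1 was not a DEG with empty cells filled (adjusted p = 0.0595). The numbers ran from 4 to 12 higher and from 2 to 5 lower.

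**Figure D5:**
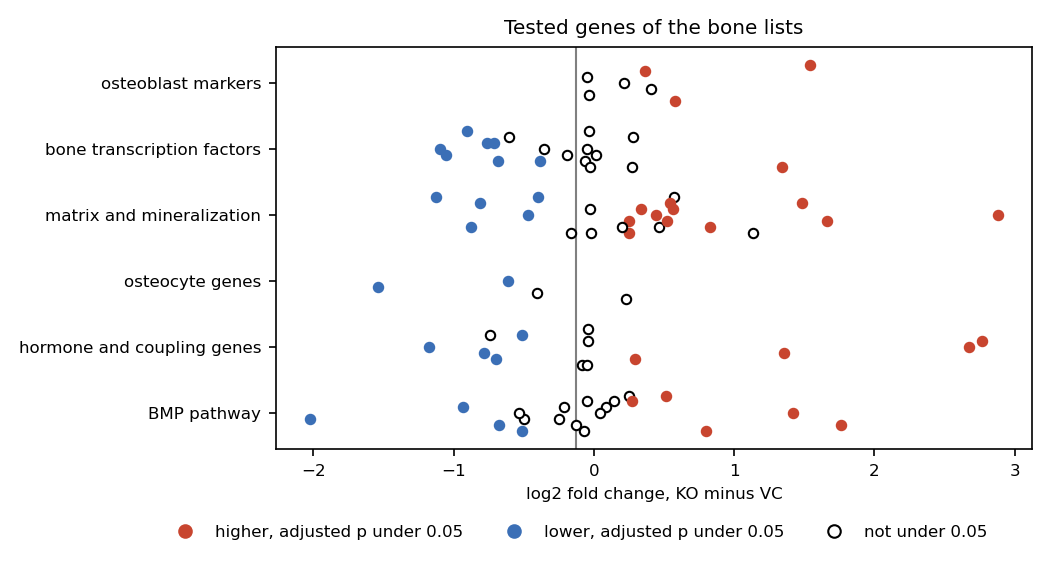
Log2 fold change (KO minus VC) of each tested gene of the osteoblast markers and 5 related lists, with filled red and blue points for DEGs higher and lower in KO and open points for the others. The grey line is the median of all tested genes at -0.13, vertical offsets within a list have no meaning, and the 3 DEGs among the markers are all to its right.

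Of 8 osteocyte genes, 4 were tested and 2 were lower, FAM20C, the kinase that phosphorylates SPP1, DMP1 and their relatives, by 1.54 (from 3.12 ± 0.084 to 1.58 ± 0.52, SD, n = 3, limma adjusted p = 0.0165) and PDPN by 0.61 (adjusted p = 0.0225). Of all tested genes, 19.8% were lower. MEPE, SOST and FGF23 had no value. With 1 library left out FAM20C was a DEG in 2 of 6 fits and PDPN in 1 of 6, with highest adjusted p of 0.0612 and 0.0765 (both without VC replicate 3), and the number of lower genes ran from 0 to 3.

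Of 17 hormone and coupling genes, 13 were tested, 4 were higher and 4 lower, against 13.1% higher and 19.8% lower among all tested genes. TNFRSF11B (osteoprotegerin), the decoy receptor that blocks osteoclast formation, rose by 2.77 (from 1.74 ± 0.12 to 4.51 ± 0.42, SD, n = 3, limma adjusted p = 0.00614), the parathyroid hormone-related ligand PTHLH by 2.68 (adjusted p = 0.00789) and its receptor PTH1R by 1.36 (adjusted p = 0.0114), and all 3 remained DEGs in each of the 6 fits without 1 library. With a replicate block PTH1R was not a DEG (limma adjusted p = 0.0535). The receptors FGFR3, FGFR2 and FGFR1 fell by 1.18, 0.78 and 0.70 (limma adjusted p = 0.0386, 0.0282 and 0.0173). Their highest adjusted p was 0.106 and 0.0864 without VC replicate 1 for FGFR3 and FGFR2 and 0.0656 without VC replicate 3 for FGFR1, and the number of lower genes ran from 0 to 5. FGFR3 and FGFR2 were also not DEGs without moderation (adjusted p = 0.0768 and 0.0567) or with empty cells filled (0.0718 and 0.0551). With 1 added to the linear signal the differences were -0.57 for FGFR3, -0.33 for FGFR2 and 0.16 for PTH1R. TNFRSF11B and FGFR1 lie on chromosome 8, where the median was -0.27. NELL1, the osteogenic ligand of CNTNAP4, had a value in VC replicates 2 and 3 alone (-6.45 and -7.60).

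Of 20 BMP pathway genes, which feed into DLX5 and RUNX2, all were tested, 5 were higher, 4 lower and 11 not DEGs (median -0.060). Among all tested genes 13.1% were higher and 19.8% lower. The ligands BMP2 and BMP6 rose by 1.77 and 1.42 (limma adjusted p = 0.00632 and 0.0122) and the receptor ACVR1 by 0.80 (adjusted p = 0.0106). SMAD1, a transducer named after its value was seen, rose by 0.52 (limma adjusted p = 0.00993). The inhibitor SMAD6 fell by 2.02 (limma adjusted p = 0.0363), the ligand BMP7 by 0.93 (adjusted p = 0.012) and the antagonist GREM1 by 0.67 (adjusted p = 0.0153). BMP2 and BMP7 lie on chromosome 20, where the median was -0.25. BMP2, ACVR1 and SMAD1 remained DEGs in all 6 fits, and the highest adjusted p was 0.0502 for BMP6 and 0.0516 for BMP7 without VC replicate 3 and 0.099 for SMAD6 and 0.0578 for GREM1 without VC replicate 1. The numbers ran from 3 to 5 higher and from 0 to 6 lower. Under 1 of the 15 alternatives SMAD1 was not a DEG (limma adjusted p = 0.0513). SMAD6 was also not a DEG without moderation (adjusted p = 0.0749) or with empty cells filled (0.0681), and its difference was -0.99 with 1 added to the linear signal. The part of the chromosome medians in any of these results was not tested.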

How the data were processed

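RNA of 143B cells, 3 VC and 3 CNTNAP4 KO libraries, was sequenced and processed by the authors. Libraries were made, per the labels, with a kit that keeps strand. The submitters' processing notes name CASAVA, STAR, Partek and GRCh38.p13. The paper's methods name CLC Genomics and Partek Genomics Suite. The authors deposited log2 signals by gene symbol, quantile-normalized between libraries. The linear unit, annotation, versions, strand setting and read totals are not given in the sources used here, so the depth is unknown and no counting error was computed. All 6 value columns were used, each matched to its library by the label's description.

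The deposited log2 signals were fitted as they stood (limma 3.58.1, R 4.3.3) by a linear model with empirical Bayes moderation and two-sided p-values, adjusted by Benjamini-Hochberg over the 19306 genes having 2 or more values in VC and in KO. The fit was tested on simulated data. An exact permutation of 3 libraries against 3 cannot give a two-sided p under 0.1. The members, the 13 gene lists and the rules were chosen with earlier results of these data known. All members were named, and of each bone list up to 3 DEGs per direction with the largest fold change, 6 values and groups that did not overlap, except for genes not reported here. There were 9 alternatives to the fit besides 6 fits that left out 1 library each. Gene neighbours and start sites came from RefSeq (GRCh38.p14) and positions and overlaps from GENCODE release 29.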

Additional observations from a re-analysis of the deposited data

How the results depend on the processing

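SPP1 was a DEG under all 15 alternatives, and the direction of RUNX2, ALPL, PHEX, SPARC and SPP1 was the same under each in which they were tested. The number of markers called was 3, and it was 4 with a further quantile normalization (PHEX added), 2 among genes in the upper 50% of mean signal (where ALPL was not tested), 1 with a replicate block and 3 under the 6 other alternatives that kept all libraries. With libraries left out it was between 1 and 3, being 1 without VC replicate 1, 2 or 3 and 2 (SPP1 and PHEX) without KO replicate 3. The number of DEGs among all genes, 6354, was 3524 with empty cells filled by the lowest value, 1533 with the replicate block, and between 1223 (without VC replicate 3) and 8669 (without KO replicate 1) with libraries left out. Under the block ALPL had an adjusted p of 0.0601 and SPARC of 0.0705. The labels do not say that equal numbers pair libraries, and deviations of same-numbered libraries had correlations of 0.0226, 0.00509 and -0.00736. The sign of SP7 turned with libraries centred on the median of the genes with 6 values (0.0037) and the block (0.043), that of DLX5 with centred libraries (0.047), a further quantile normalization (0.075) and without KO replicate 2 (0.10, range with libraries left out -0.14 to 0.10), and that of PMF1 without VC replicate 2 (-0.0081) and KO replicate 1 (-0.020, range -0.020 to 0.040). The cause was not tested. Of the 32 list genes chosen by the naming rule, 13 were DEGs in all 6 fits without 1 library. Adding 1 to the linear signal moved the median of all genes from -0.13 to -0.023. Without read totals, an empty cell sets no upper limit on a gene's level.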

Other observations

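Markers of other lineages that a mesenchymal tumour line could hold were also followed. Their counts stand beside a share of 32.9% DEGs among all tested genes, 13.1% higher and 19.8% lower. VIM, the mesenchymal intermediate filament, had log2 signals of 10.3 to 10.5 in VC and 10.6 to 10.9 in KO (limma adjusted p = 0.0667), and of the 5 mesenchymal markers NT5E (CD73) fell by 0.66 (adjusted p = 0.00874) and the others were not DEGs. Among 6 chondrocyte markers, 5 were tested, SOX9, the factor of the lineage, had means of 5.92 in VC and 5.97 in KO (adjusted p = 0.567), COL2A1 fell by 2.52 from -3.12 ± 0.19 (SD, n = 3, adjusted p = 0.0122) and MATN3 rose by 1.54 (adjusted p = 0.0227, and 0.0656 without VC replicate 3). Of 6 adipocyte markers, 5 were tested. CEBPA fell by 0.95 (limma adjusted p = 0.00985), LPL fell by 0.72 (adjusted p = 0.0464, and 0.121 without KO replicate 3) and FABP4 rose by 1.12 (adjusted p = 0.0235, and 0.0635 without VC replicate 3), while PPARG, the factor of the lineage, had a difference of -0.050 (adjusted p = 0.82).

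Of 3 tendon markers, MKX, a homeodomain factor of tendon, rose by 3.70, from -4.46 ± 0.51 to -0.76 ± 0.45 (SD, n = 3, limma adjusted p = 0.00782), and was a DEG in all 6 fits without 1 library. SCX had a difference of -0.88 (adjusted p = 0.156) and TNMD had no value. Of 4 epithelial markers, EPCAM had a value in each library and fell from 1.71 ± 0.087 to 1.04 ± 0.17 (SD, n = 3, adjusted p = 0.0157, and 0.06 without VC replicate 1). KRT5 had values in the VC libraries alone (-6.00 to -5.34), CDH1 in VC replicate 2 alone (-8.04) and KRT14 in none. All 4 endothelial markers were tested with limma, and 0 had an adjusted p, an unadjusted p or an unmoderated adjusted p under 0.05. Of 4 blood markers only PTPRC was tested (limma adjusted p = 0.236), and of 4 muscle markers MYOD1, MYOG and MYF5 had no value and DES had values in 4 libraries (-7.05 to -6.00). With 1 added to the linear signal the differences were -0.13 for COL2A1, 0.28 for MATN3, 0.61 for MKX, 0.58 for FABP4, -0.55 for CEBPA and -0.45 for LPL. Without moderation MATN3, FABP4 and LPL were not DEGs (adjusted p = 0.0519, 0.0517 and 0.0849), nor was LPL with empty cells filled (0.0839).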
